A study of Drosophila melanogaster with 3 samples.

Results

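The proteasome subunit genes of Drosophila melanogaster were examined for binding of Blimp-1, a zinc finger repressor and the fly homologue of PRDM1. They were taken as the protein-coding genes whose symbol starts with Prosalpha, Prosbeta, Rpn or Rpt followed by a number, which gave 48 of 13945 protein-coding genes. Chromatin immunoprecipitation and sequencing (ChIP-seq) had been carried out with an antibody against green fluorescent protein (GFP) on whole embryos of a transgenic line that stably expresses Blimp-1 with GFP fused to its C-terminus, which the source label gives as 10 to 12 h old. There was 1 group with 3 biological replicates, and all replicates share a control alignment. What drives the transgene is not given in the labels. The tag marks the transgenic protein in every tissue of the embryo that expresses it, so a peak is an average over all cells. No second genotype, stage or mock precipitation was among the samples, so the study holds no contrast between conditions.

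The proteasome is the barrel-shaped protease that degrades ubiquitin-tagged proteins. Its core particle is built of alpha rings, which gate the entry, and beta rings, which hold the protease sites. The regulatory particle caps the core and consists of a lid, which removes ubiquitin, and a base, whose Rpt ATPases unfold the substrate and thread it into the core. All cells need the complex, and many of its genes in flies have additional copies that are expressed in the testis. Of the 48 genes, 18 encode core subunits (14 standard alpha and beta subunits and 4 copies with the suffix T, T1 or T2), 18 encode regulatory subunits, and 12 are paralogues whose symbol ends in R, R1 or R2. These paralogues were kept apart from the core and regulatory groups but are part of the 48.

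A minority of the proteasome genes had a Blimp-1 peak near their promoter, and most of those that did encode subunits of the lid. A summit of the list thresholded on the irreproducible discovery rate (the IDR-thresholded list, 9515 peaks) lay within 1 kb of a transcription start site (TSS) of 9 of the 48 genes (18.8%, 95% Wilson interval 10.2 to 31.9), against 24.9% of all 13945 protein-coding genes. Among core genes it was 2 of 18 (11.1%, interval 3.1 to 32.8) and among regulatory genes 7 of 18 (38.9%, interval 20.3 to 61.4). None of the 12 paralogues ending in R, R1 or R2 had one (interval 0.0 to 24.2), nor did the 4 core copies with the suffix T, T1 or T2. All 9 were thus among the 32 genes without such a suffix. The share of these 32 was above that of all genes while that of the 48 was below it, and neither difference was tested. The 9 genes were Prosalpha4 and Prosbeta2 of the core, the lid genes Rpn3, Rpn5, Rpn8, Rpn9, Rpn11 and Rpn12, and Rpn13, which encodes a ubiquitin receptor of the base. In parts of the complex, a summit was thus found at 1 of 7 alpha genes, 1 of 7 beta genes, 6 of 8 lid genes, 1 of 3 base genes other than the ATPases, and 0 of 6 Rpt ATPase genes. The remaining regulatory gene is Rpn10, a ubiquitin receptor between lid and base, which had none. Sem1, another lid subunit, falls outside the symbol rule and is not counted here. It had no summit within 1 kb in any list, the nearest IDR-thresholded one being 9225 bp away. It is named after its values were seen. The division into lid and base was made with the peaks known, and the difference between the parts was not tested.

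**Figure D1:**
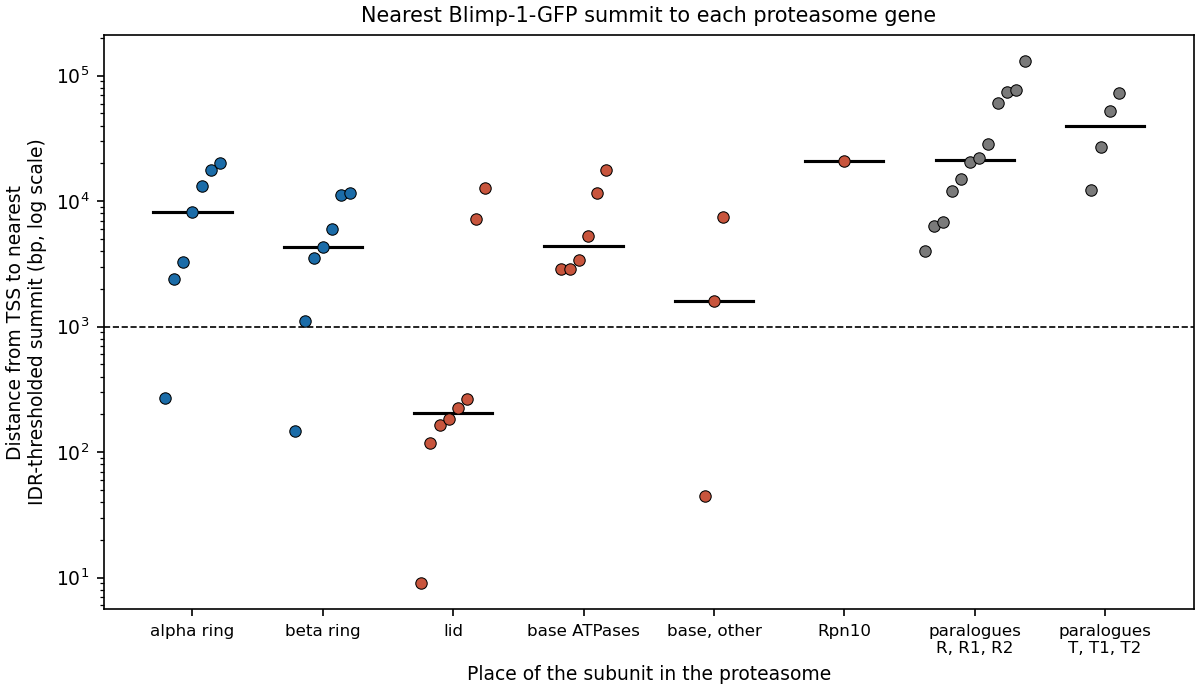
Distance in bp on a log scale (y axis) between the nearest IDR-thresholded summit and any TSS of each of the 48 genes, by place in the complex (x axis), with core genes in blue, regulatory genes in red and paralogues in grey. Points are genes, bars are medians and the dashed line marks 1 kb: 6 of 8 lid genes lie below it, and the 6 ATPase genes and 16 paralogues lie above it.

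The sequence below 6 of the 10 summits is shown first, so that the presence or absence of known words at a summit can be read directly. Stretches overlap no annotated exon, are from dm6 and run 5′ to 3′ on the strand of the proteasome gene. For Rpn3 and Prosbeta2 the whole gap between the TSSs of the proteasome gene and its divergent neighbour is given, and for the others the summit with 50 bp on each side. Capitals mark the summit base and any match to the Blimp-1 word (AGTGAAAG or AGCGAAAG), the DREF word (TATCGATA), the M1BP word (GGTCACAC) or the Cnc word (TGACNNNGC).
Rpn3 and l(2)37Bb gap (chr2L:19051613-19051789, + strand): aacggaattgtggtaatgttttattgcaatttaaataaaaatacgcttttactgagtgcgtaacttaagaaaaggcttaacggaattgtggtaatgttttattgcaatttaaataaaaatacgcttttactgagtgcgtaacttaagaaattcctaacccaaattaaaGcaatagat
Prosbeta2 and mRpL39 gap (chr3L:14999667-14999950, + strand): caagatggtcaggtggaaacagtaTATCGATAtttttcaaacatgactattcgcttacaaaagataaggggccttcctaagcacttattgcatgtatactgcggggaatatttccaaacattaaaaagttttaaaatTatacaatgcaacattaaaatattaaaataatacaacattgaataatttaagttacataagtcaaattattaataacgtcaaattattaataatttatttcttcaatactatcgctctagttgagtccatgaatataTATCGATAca
Rpn5 summit (chr3R:5789218-5789318, + strand): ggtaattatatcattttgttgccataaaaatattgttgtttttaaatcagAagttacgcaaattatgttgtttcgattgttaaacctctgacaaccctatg
Rpn11 summit (chr2L:5060005-5060105, - strand): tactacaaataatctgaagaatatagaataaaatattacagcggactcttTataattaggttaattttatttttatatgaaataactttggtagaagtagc
Rpn12 summit (chr3L:16582860-16582960, + strand): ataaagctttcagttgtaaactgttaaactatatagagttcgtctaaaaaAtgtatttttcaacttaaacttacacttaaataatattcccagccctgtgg
Prosalpha4 summit (chrX:16275948-16276048, + strand): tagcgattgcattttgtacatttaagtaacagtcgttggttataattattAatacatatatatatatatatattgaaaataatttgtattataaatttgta
The G and C content of these stretches ranged from 17.8% at Prosalpha4 to 28.8% at Rpn3, and the summit base stood outside all of the 4 words in each. These 6 are not all of the peaks: within 50 bp of all 10 summits the median was 27.7%, with a range from 17.8% to 48.5% and the 2 highest values at Rpn9. For the 3569 IDR-thresholded peaks within 1 kb of a protein-coding TSS the median was 35.6%, with quartiles of 26.7% and 44.6%. None of the stretches shown held a Blimp-1 word. The gap at Prosbeta2 held TATCGATA at both ends, close to the TSS of each gene. The gap at Rpn3 held a stretch of 72 bases that occurs a second time 78 bases further on (chr2L:19051613-19051684 and chr2L:19051691-19051762), and the summit lay just past the second copy. How reads that map to both copies were treated is not stated, and its part in the height of this peak was not tested.

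The signal value of the authors' deposited lists ranks the peaks within a list, and the 10 peaks at these genes had middling ranks. The median rank was 4351 of 9515, with a range from 1468 to 8473, and the median of all 3569 IDR-thresholded peaks within 1 kb of a protein-coding TSS was 4187. Their widths ranged from 109 to 423 bp, with a median of 273.5 bp, against 388 bp for all such peaks. A match in a replicate is a summit within 100 bp. Of the 10 peaks, 7 were matched in all 3 full lists of 30000 peaks (70.0%), against 88.9% of the 3569. The same 7 had a match of rank 9515 or better in every replicate, against 70.2% of the 3569.

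The strongest of the 10 peaks was at Rpn3, which encodes a scaffold subunit of the lid. This peak, chr2L:19051521-19051943, had rank 1468 in the IDR-thresholded list and ranks 2239, 1376 and 1157 in replicates 1, 2 and 3. Its summit lay 9 bp upstream of an Rpn3 TSS and 169 bp from that of l(2)37Bb on the other strand. It stood highest of the members in replicates 2 and 3, while in replicate 1 the upstream Rpn9 peak was higher.

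Rpn9, another scaffold subunit of the lid, was the only one of the 48 with 2 IDR-thresholded summits within 1 kb. The stronger had rank 3073, with ranks 2156, 3529 and 4050 in replicates 1, 2 and 3. It lay 640 bp upstream of the distal Rpn9 TSS. The weaker had rank 8473 and lay in the 5′ UTR of Rpn9, 164 bp downstream of that TSS. It ranked 6913 in replicate 2 and 5364 in replicate 3, and replicate 1 had no summit within 100 bp of it. The weaker summit held GGTCACAC within 50 bp.

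Rpn11 encodes the deubiquitinase of the lid and Rpn8 its partner subunit. The Rpn11 peak, chr2L:5059968-5060182, had rank 4182 in the IDR-thresholded list. In replicates 1, 2 and 3 its ranks were 3757, 4761 and 4426, and the summit lay 265 bp upstream of the TSS. The ranks of this peak were close together in the 3 replicates. At Rpn8 the peak chr2R:24402612-24403031 had rank 6869 and ranks 6295, 7434 and 8936 in replicates 1, 2 and 3. Its summit lay 183 bp upstream of the internal TSS of Rpn8, within an intron of the longer transcript, and 142 bp from a TSS of the kinase gene Slik.

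Rpn5 and Rpn12 encode further scaffold subunits of the lid. The Rpn5 peak, chr3R:5789254-5789362, had rank 4169, and ranks 4081, 5004 and 4298 in replicates 1, 2 and 3. Its summit lay 225 bp upstream of the Rpn5 TSS, in an intron of the histone acetyltransferase gene Hat1 and 116 bp from the Hat1 TSS. The Rpn12 peak, chr3L:16582830-16582942, had rank 4520 and lay 118 bp upstream of the TSS, with no other protein-coding TSS within 1 kb of the summit. Its ranks were 5528 in replicate 2 and 4344 in replicate 3, and the nearest summit of replicate 1 was 1546 bp away. This peak therefore rests on 2 of the 3 replicates.

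The other 3 genes lie outside the lid. At Rpn13 the peak chr2R:13960356-13960544 had rank 4709, with ranks 5578, 5138 and 4211 in replicates 1, 2 and 3, and its summit lay 45 bp upstream of a TSS. Prosbeta2 encodes the subunit with trypsin-like activity. Its peak, chr3L:14999669-15000000, had rank 2954, with ranks 3503, 3060 and 2663 in replicates 1, 2 and 3, and lay 147 bp upstream of its TSS and 138 bp from that of mRpL39, a mitochondrial ribosomal protein gene. This single peak thus counts for a gene of both complexes. The Prosalpha4 peak, chrX:16275938-16276064, had rank 7476. It lay 272 bp upstream of the TSS and 81 bp from a TSS of kat80, in an intron of kat80, which encodes a katanin subunit. It ranked 7949 in replicate 2 and 8015 in replicate 3, and the nearest summit of replicate 1 was 2297 bp away. Without the peaks that replicate 1 lacked, the core count would be 1 of 18.

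**Figure D2:**
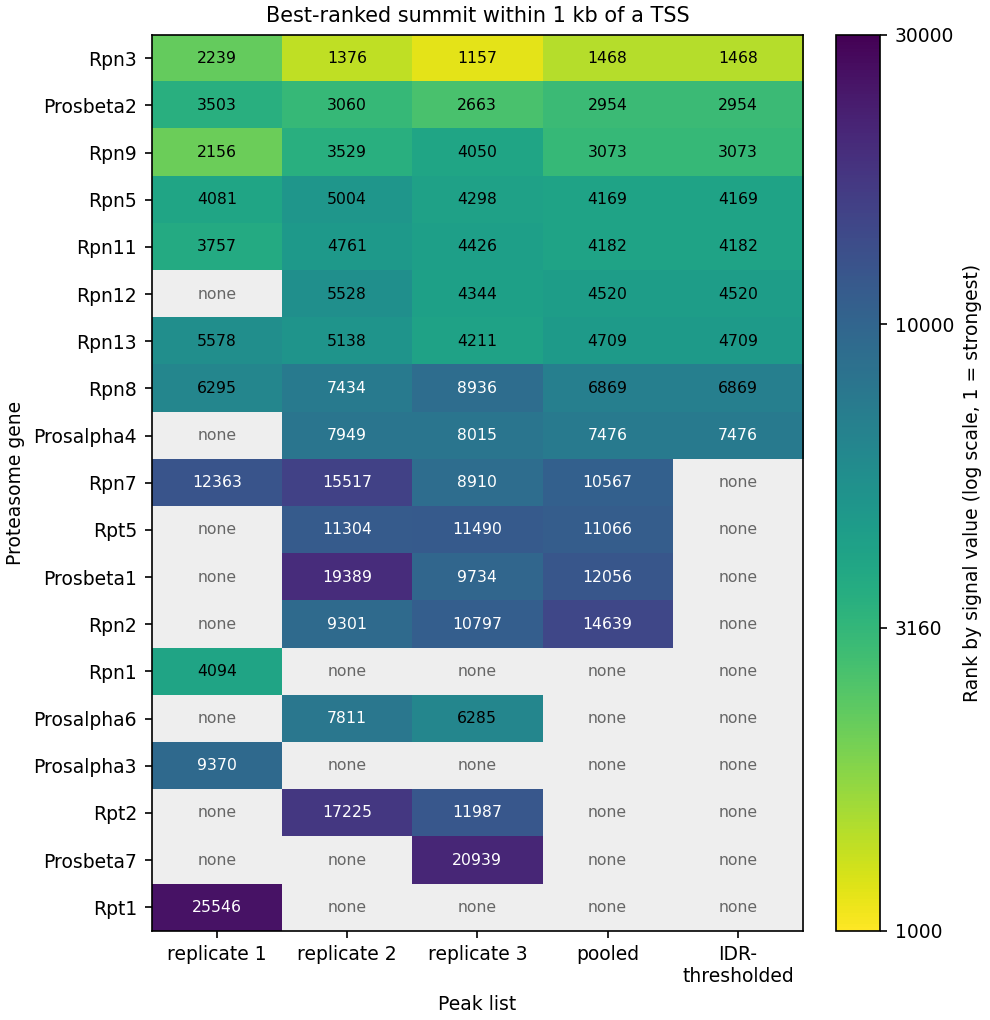
Best rank by signal value of a summit within 1 kb of a TSS (number and colour, log scale, 1 is the strongest) for the 19 genes with such a summit in any list (y axis) in each of the 5 lists (x axis). Grey cells marked none hold no summit within 1 kb: replicate 1 has none at Rpn12 and Prosalpha4, and Rpn1 has rank 4094 in replicate 1 and none elsewhere.

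Below the threshold, 4 further genes had a summit within 1 kb in the pooled list of 30000 peaks, which gave 13 of 48 (27.1%), against 38.1% of all protein-coding genes. The best rank was at Rpn7, a scaffold subunit of the lid, with 10567 in the pooled list. That peak was matched within 100 bp in replicate 1 alone, with rank 12363. A further pooled-list peak at Rpn7, of rank 14707, had its summit nearer the TSS of the neighbour AP-2mu. It was matched with ranks 19075, 15517 and 8910 in replicates 1, 2 and 3. With Rpn7, 7 of the 8 lid genes among the 48 had a pooled-list summit. Next came Rpt5, an ATPase gene, with rank 11066 and ranks 11304 and 11490 in replicates 2 and 3. Prosbeta1, the subunit with caspase-like activity, had rank 12056 and ranks 19389 and 9734 in replicates 2 and 3. Rpn2, a large scaffold subunit of the base, had rank 14639 and ranks 9301 and 10797 in replicates 2 and 3. Replicate 1 had no summit within 1 kb of Rpt5, Prosbeta1 or Rpn2. None of the 13 genes with a pooled-list summit has an R or T suffix.

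Another 6 genes had a summit within 1 kb in a replicate list but not in the pooled list. Rpn1, a scaffold subunit of the base, had rank 4094 in replicate 1 and no summit within 1 kb in replicates 2 and 3. At Prosalpha6 the ranks were 7811 in replicate 2 and 6285 in replicate 3, with summits 507 and 554 bp from its TSS and in the 5′ UTR of Npc1a, its divergent neighbour. Prosalpha3 had rank 9370 in replicate 1, Rpt2 ranks 17225 and 11987 in replicates 2 and 3, Prosbeta7 rank 20939 in replicate 3 and Rpt1 rank 25546 in replicate 1. In replicate 1 the Rpn1 peak ranked above those of Rpn13 and Rpn8. The Prosalpha6 peak ranked above that of Prosalpha4 in replicate 2 and above those of Rpn8 and Prosalpha4 in replicate 3.

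In each of the 3 replicates the share of the 48 genes, R and T copies included, was below that of all genes, a difference that was not tested. Among the 9515 strongest peaks of each replicate it was 21.5% ± 2.41 (SD, n = 3), with 9, 11 and 11 genes in replicates 1, 2 and 3. For all protein-coding genes the shares were 24.4%, 25.9% and 28.2%. The 48 include the 16 genes with an R or T suffix, none of which had a summit in any list. Over the 32 other genes, the same counts of 9, 11 and 11 give a share above that of all genes in each replicate. This difference was not tested either. Core genes had 14.8% ± 3.21 (2, 3 and 3 genes) and regulatory genes 42.6% ± 3.21 (7, 8 and 8 genes; SD, n = 3 for both). The core group holds the 4 T copies, which had no summit, and its standard subunits number 14. The regulatory group holds no such copies. In every replicate the regulatory count exceeded the core count, although the replicates share a control and the genes are the same. In the full lists of 30000 peaks the 48 genes had 29.2% ± 5.51 (SD, n = 3), with 11, 15 and 16 genes, against 39.2%, 42.0% and 44.8% of all genes. A summit was present in all 3 full lists at 8 of the 48 genes, against 32.2% of all genes.

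**Figure D3:**
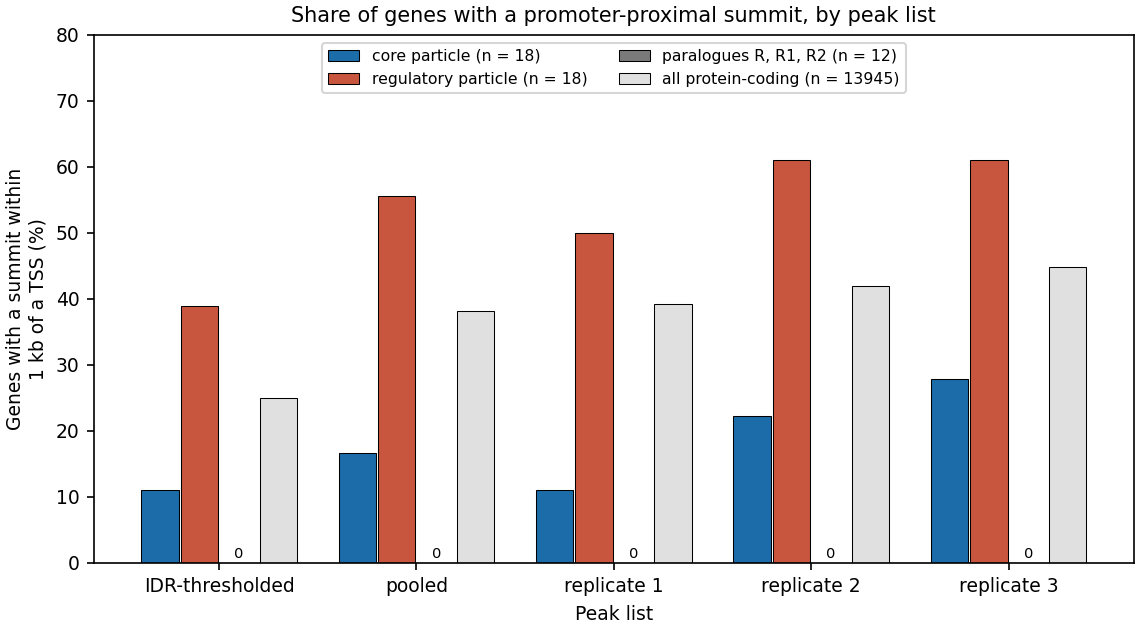
Percentage of genes (y axis) with a summit within 1 kb of a TSS in each peak list (x axis; full lists) for core genes, regulatory genes, paralogues ending in R, R1 or R2, and all protein-coding genes. Regulatory genes stand at 38.9% and core genes, T copies included, at 11.1% in the IDR-thresholded list, and the paralogues at 0 in every list.

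The paralogues differed from the standard subunits in all lists, a difference that was not tested. None of the 16 genes ending in R, R1, R2, T, T1 or T2 had a summit within 1 kb of a TSS in any of the 5 lists, whereas 19 of the 32 standard genes did, and 52.1% of all protein-coding genes did. The nearest IDR-thresholded summit was a median of 21174 bp from the 12 paralogues ending in R, R1 or R2, from 3997 bp at Prosbeta2R2 to 131297 bp at Prosbeta5R2. For the 4 genes ending in T, T1 or T2 the median was 39672 bp, from 12198 bp at Prosalpha4T2 to 72953 bp at Prosalpha4T1. In the core genes, T copies included, the median was 9776 bp, in the regulatory genes 2879 bp and in all protein-coding genes 5497 bp. Whether the regions of these paralogues were as open to mapping of reads as others was not tested.

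The limit of 1 kb fell in a gap of the distances. The farthest of the 9 genes inside it was Prosalpha4 at 272 bp, and the nearest outside were Prosbeta6 at 1102 bp and Rpn2 at 1597 bp. The peak near Prosbeta6, of rank 8337, lay 31 bp from the TSS of CG4098, and the peak near Rpn2, of rank 5132, lay 133 bp from that of eIF2D. Within 500 bp the count of 9 was the same, against 20.5% of all genes, and within 2 kb it was 11 of 48, against 31.3%. Among the Rpt ATPase genes the nearest summit was 11621 bp away at Rpt1, 2862 bp at Rpt2, 2896 bp at Rpt3, 17727 bp at Rpt4, 5297 bp at Rpt5 and 3420 bp at Rpt6. Of the 2 lid genes among the 48 without an IDR-thresholded summit within 1 kb, Rpn7 had its nearest 7248 bp and Rpn6 12711 bp away.

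Most of the peaks lay between or near promoters of 2 genes. Of the 10 summits, 9 lay within 1 kb of the TSS of another protein-coding gene (90.0%), against 27.2% of all TSS-proximal IDR-thresholded peaks. Counted over genes, every summit near the gene was shared in this way for 8 of the 9 proteasome genes (88.9%), against 45.6% of the 3467 genes with such a summit. Rpn12 was the exception. A gene with several summits meets this measure less easily, and of the 9 only Rpn9 had 2. Neither difference was tested. The nearest protein-coding TSS was that of the proteasome gene for 5 of the 10 summits (Rpn3, Rpn11, Rpn12, Rpn13 and the stronger of Rpn9) and that of the neighbour for the other 5. Which of the genes a shared peak acts on cannot be told from peak lists. Relative to the nearest TSS of the proteasome gene, 9 of the 10 summits lay upstream, although that of Rpn8 lay within the gene. Counted by the nearest summit of each gene it was 8 of 9 (88.9%), against 75.4% of all genes with a summit.

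Divergent promoters are common among the members. Another protein-coding TSS lay upstream on the other strand within 1 kb of the 5′ end of 22 of the 48 genes (45.8%), against 35.2% of all protein-coding genes. Of those 22, 5 had an IDR-thresholded summit within 1 kb (22.7%), against 33.1% of the 4913 divergent genes of the genome. Of the other 26, 4 had one (15.4%), against 20.4% of 9032. The 22 include 3 paralogues ending in R, R1 or R2. The 26 include 9 such paralogues and the 4 T copies, none of which had a summit. In the core it was 2 of 10 divergent genes and 0 of 8 others, which include the 4 T copies. In the regulatory group, which holds no copies, it was 3 of 9 divergent genes and 4 of 9 others. These differences were not tested. A divergent neighbour was present at 4 of the 6 Rpt ATPase genes, none of which had a summit. Most members have a single annotated TSS (36 of 48, 75.0%, against 73.5% of all genes), but the groups differed. A single TSS was present at 16 of 18 core genes, T copies included (88.9%), 10 of 18 regulatory genes (55.6%) and 4 of 8 lid genes. Among the 10246 protein-coding genes with a single TSS, 18.5% had a summit within 1 kb, against 24.9% of all. A summit near any TSS counts, and the part of TSS number in the difference between core and regulatory genes was not tested. From the gene 5′ end alone, 2 of 18 core and 6 of 18 regulatory genes had a summit.

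The known Blimp-1 word was absent from the summits. Within 50 bp of the 10 summits, 0 held AGTGAAAG or AGCGAAAG on either strand, a count that would allow a share of up to 30%. Of the 3569 TSS-proximal IDR-thresholded peaks 5.41% held it, so at 10 peaks a lower share was not detectable. TATCGATA and TGACNNNGC were within 50 bp of 0 of the 10 summits, and GGTCACAC of 1. These intervals and limits cover counting error only.

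Words of core promoters were examined from 250 bases before to 50 bases after the 5′ end of each gene, on both strands. DREF and M1BP are known to bind promoters of broadly expressed genes, and the Cnc word is the antioxidant response element bound by Cap-n-collar, whose mammalian relatives activate proteasome genes. TATCGATA was in 12 of the 32 promoters of standard subunits (37.5%), in 0 of the 16 promoters of genes with an R or T suffix, and in 9.36% of all protein-coding promoters. It was in the windows of 5 of the 9 genes with an IDR-thresholded summit (Prosbeta2, Rpn3, Rpn9, Rpn12 and Rpn13). Of the 39 other genes 7 held it, and these 39 include the 16 with an R or T suffix. Over all genes, 10.6% of those with a summit held it and 8.93% of those without. Some matches lay at a divergent neighbour. At Rpn3 the word lay 197 bases before the TSS, beyond the l(2)37Bb TSS at 178 bases. At Prosbeta1 it lay 121 bases before, at the TSS of Rrp42. GGTCACAC was in 5 of the 32 standard promoters (15.6%, against 7.70% of all), and TGACNNNGC was also in 5 (15.6%, against 8.63% of all). None of the 9 genes with a summit held TGACNNNGC in this window. For Rpn8 the window lies at the 5′ end of the gene and not at the internal TSS near its summit. No word contains another, but GGTCACAC read on the other strand holds the first bases of TGACNNNGC. The 2 can therefore share bases, as they did at Rpn1 and Prosbeta3. The shares were not tested, and a word in a promoter is not a bound site.

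The Blimp-1 word was in 1 of the 32 standard promoters (3.12%), that of Rpn1, and in 1 of the 16 others, that of Prosalpha6T, against 3.11% of all promoters. The stretch before the Rpn1 TSS is shown because this promoter held the word, on the other strand as CTTTCACT, 167 bases before the TSS, and had a summit (the capital T) in replicate 1, 89 bp before the TSS, and in no other list.
Rpn1 upstream of the TSS (chr3L:19914871-19915050, + strand): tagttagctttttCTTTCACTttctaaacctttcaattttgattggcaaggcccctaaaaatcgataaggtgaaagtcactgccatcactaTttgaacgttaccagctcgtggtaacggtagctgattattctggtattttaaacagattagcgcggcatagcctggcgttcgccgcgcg
The peak of rank 4094 in replicate 1 was 128 bp wide. The other promoter with the word, that of Prosalpha6T, had its nearest IDR-thresholded summit 26873 bp away.

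In the wider ubiquitin and proteasome pathway, 3 genes had a peak of better rank than any of the subunit genes. Of 50 names of a list of assembly factors, ubiquitin genes, ligases, regulators and the COP9 signalosome, 49 matched a protein-coding gene, and 10 of these had an IDR-thresholded summit within 1 kb (20.4%, against 24.9% of all genes). In the replicates' strongest peaks their share was 25.2% ± 5.14 (SD, n = 3). The peak of highest rank was at SkpA, a core component of SCF ubiquitin ligases, with rank 718. Its summit lay 961 bp from the nearest SkpA TSS, just inside the limit, and would not count within 500 bp. Keap1, the ligase adaptor that binds Cnc, had rank 736, Uba2, which encodes a subunit of the SUMO-activating enzyme, rank 1208, Pomp, the maturation protein of the core particle, rank 1478 and Ubr1, an N-recognin ligase, rank 1936. Of the subunit genes, Rpn3 stood between Uba2 and Pomp, and all others ranked below Ubr1. The gene of Cnc itself, named here after its values were seen, had a best rank of 2548 with 2 summits within 1 kb. The first name in alphabetical order with none was ago, an F-box gene. In the pooled list 24 of the 49 genes had a summit (49.0%, against 38.1%).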

How the data were processed

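Peak lists of Blimp-1-GFP ChIP-seq from 3 replicates of whole embryos (chromatin sheared to 200 to 800 bp, per the labels) were used. The notes deposited with the files give dm6 as assembly and name a control alignment common to all replicate calls; the pooled list was called on the 3 together, and the IDR-thresholded list was derived from these 4. The sources used here do not name the aligner, caller or threshold. The peak score used is the signal value of the deposited lists; its scale is not defined, and it served only to rank peaks within a list. All 9515 IDR-thresholded peaks were identical to the top of the pooled list. Depth is unknown. No p-values were computed.

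Gene models came from Ensembl release 115 and sequence from the Release 6 assembly, without chromosome Y, pseudogenes and transposable elements. Coordinates are 1-based. Summits (start plus the deposited offset) were assigned to any TSS within 1000 bp with Python 3.11.15, pandas 2.3.3 and numpy 2.4.6; intervals used scipy 1.17.1. The assignment was tested on simulated positions. The neighbour of Rpn9 is not reported here. Every member may be named, those with a summit near the threshold in full, and of the wider list the 5 strongest. Members and lists were chosen with earlier results of these data known.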

Additional observations from a re-analysis of the deposited data

How the results depend on the processing

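The count of 9 of 48 genes stayed within 1.5 times under 500 bp, 2 kb, the stronger part of the list, the pooled list, the gene 5′ end alone and a match in all 3 replicates. It was 5 of 48 where the peak had to cover a TSS (without Prosalpha4, Rpn5, Rpn11 and Rpn12; core 1, regulatory 4, wider list 4, all genes 1684). It was also 5 with each summit given to its nearest TSS alone, chosen after seeing the data (10.4%, against 19.4% of all genes, 2705; core 0, regulatory 5, wider list 6). The core count of 2 fell to 1 in the stronger part of the list and where a match in all 3 replicates was required. With 1 replicate left out it ranged from 1 to 2, the total from 7 to 9, and Prosalpha4 and Rpn12 were lost whenever replicate 1 was kept. The core count was 2 of 14 with the T copies apart. All genes numbered 2223 in the stronger part and 5320 in the pooled list, and the wider list 24 in the pooled list. The mean replicate share was 29.2% with all 30000 peaks. In every setting the paralogue count was 0 and the regulatory count exceeded the core count. No paired analysis was possible because the series has 1 group. Depth is unknown, so a missing peak is not shown to be absent binding.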
